A study of Sus scrofa with 8 samples.

Results

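The MHC class II genes of the pig and their transcriptional activator CIITA were followed across the skeletal muscle of 2 pig breeds. The members were the probe sets to which GEO's platform annotation gives exactly 1 gene symbol and whose symbol is SLA-DRA, SLA-DQA1, SLA-DQB1, SLA-DMA, SLA-DMB, CD74 or CIITA. This gave all 7 genes, of the 6765 genes with such a probe set, measured by 8 of the array's 24123 probe sets, with 2 probe sets for SLA-DMA and 1 for each other gene. The study compared Korean native pigs aged 7 months (n = 4) with Yorkshire pigs aged 6 months (n = 4), raised under the same conditions, to find genes expressed differently in their skeletal muscle. Back muscle from between the seventh and ninth ribs, the longissimus dorsi, was taken from each, and its total RNA was hybridised to 1 Affymetrix porcine array per replicate. Breed and age differ together, so their parts in a difference cannot be told apart.

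MHC class II molecules display peptides of engulfed proteins to CD4+ T cells. They are made above all by dendritic cells, macrophages and B cells, while resting muscle fibres show little of them. A class II molecule is a pair of an alpha and a beta chain that is held by the invariant chain, CD74, until the DM molecule exchanges a fragment of that chain for a peptide. CIITA is a coactivator that does not bind DNA itself: it joins the RFX, CREB and NF-Y factors at the class II promoters, and interferon gamma induces it in many cell types. In the Sscrofa11.1 assembly the SLA genes named here neighbour each other in the MHC region, whereas CD74 and CIITA lie on other chromosomes.

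Values are deposited signal intensities, scaled per array, and a difference is the Korean native pig mean minus the Yorkshire mean of log2(signal + 32). Over the arrays the median signal was 135.8 to 185.3. As a mark of background, the 95th percentile of the 23 negative control probe sets was a signal of 91.5. The tissue label was met by a list of skeletal muscle fibre markers, of which 8 of 12 had a probe set, with a summed signal of 387232 to 584360 in the Korean native breed and 512631 to 785555 in Yorkshire. The arrays of a breed are called biological replicates in the labels, which do not name the animals. In each breed the hybridisation control probe sets were brighter on replicates 1 and 3 than on replicates 2 and 4, called bright and dim arrays here, and differences within these arrays, 2 per breed each, are given beside each member.

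Most of the class II genes had their highest value on the same array, and none passed as different between the breeds. Of all arrays Korean native pig 4 had the highest signal in 5 of the 6 class II genes, at 2.77 to 4.55 times the median of the other 7 arrays in these 5. Over all 14399 probe sets tested, 10.2% had their highest signal on that array. In 5 of the 8 member probe sets its signal was at least 2 times that of the next array, and this held for 0.458% of all probe sets tested, while 1.28% had any single array at least 2 times above the next. These background shares were computed after the pattern had been seen. All 8 member probe sets had a difference above 0, as had 50.7% of all probe sets, and none passed the limma adjusted threshold of 0.05, which 0% of all probe sets passed. Without Korean native pig 4 the difference was below 0 in 5 of the 8 and above 0 in 3, against 50.2% above 0 over all probe sets. That array was left out for its high values. Differences, intervals and p values without it are therefore descriptions and not tests, here and below.

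**Figure D1:**
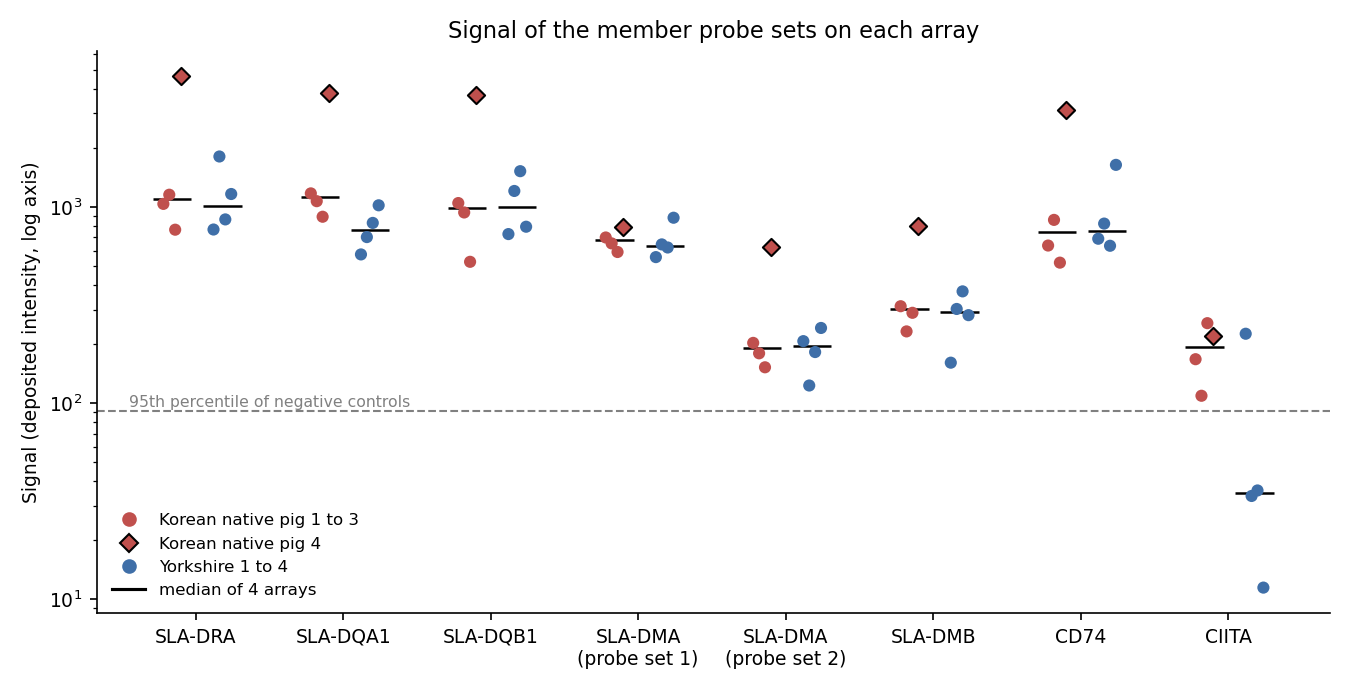
Deposited signal (log axis) of the 8 member probe sets on each of the 8 arrays, with the median of each breed as a bar and the 95th percentile of the negative controls as a dashed line. Korean native pig 4 (diamond) lies above every other array in SLA-DRA, SLA-DQA1, SLA-DQB1, the second SLA-DMA probe set, SLA-DMB and CD74, while 3 Yorkshire arrays lie below the dashed line for CIITA.

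SLA-DRA encodes the alpha chain of the DR molecule, which pairs with the product of a DRB gene. Its signal was 1038, 1156, 767 and 4641 in Korean native pigs 1 to 4 and 768, 1811, 865 and 1166 in Yorkshire pigs 1 to 4. The highest array was Korean native pig 4, at 2.56 times Yorkshire 2, and the other 3 Korean native pigs lay inside or just below the Yorkshire range. The mean signal was 1901 ± 1834 (SD, n = 4) for the Korean native breed against 1153 ± 470.4 (SD, n = 4) for Yorkshire, a log2 difference of 0.40 (SE 0.47, 95% interval -0.64 to 1.43, limma adjusted p = 0.999). Without Korean native pig 4 the difference was -0.16 (95% interval -0.82 to 0.51). Within the arrays of bright hybridisation controls it was 0.13, and within the dim ones, which include Korean native pig 4, it was 0.67.

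SLA-DQA1, the alpha chain gene of the DQ molecule, came nearest to a breed difference among the class II genes. Its signal was 1174, 1072, 893 and 3813 in Korean native pigs 1 to 4 and 574, 703, 830 and 1021 in Yorkshire pigs 1 to 4. The groups overlapped, but 3 of the 4 Korean native pigs were above the highest Yorkshire pig. The log2 difference was 0.89 (SE 0.39, 95% interval 0.04 to 1.74, limma adjusted p = 0.999). It was 1 of 2 members, with CIITA, that had an unadjusted limma p under 0.05, both higher in Korean native pigs. Of all probe sets tested 3.96% did so in either direction and 2.01% in this one. CIITA entered the fit through the arrays on which it was high, so its p is a description and no test. Without Korean native pig 4, which was 3.25 times the next array, the SLA-DQA1 difference was 0.43 (95% interval -0.11 to 0.97). It was 0.55 within the bright and 1.23 within the dim arrays, so its sign was the same in each of these settings.

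SLA-DQB1 encodes the beta chain that pairs with the product of SLA-DQA1. Its signal was 1048, 939, 526 and 3730 in Korean native pigs 1 to 4 and 728, 1208, 1524 and 794 in Yorkshire pigs 1 to 4. The highest array was Korean native pig 4 and the lowest Korean native pig 3, so the Yorkshire values lay between them. The log2 difference was 0.22 (SE 0.48, 95% interval -0.82 to 1.25, limma adjusted p = 0.999), and -0.33 without Korean native pig 4 (95% interval -1.03 to 0.38). Within the bright arrays it was -0.49 and within the dim ones 0.92. The alpha and beta chain genes of DQ therefore had differences of opposite sign once that array was left out, though neither interval excluded 0. This describes the remaining arrays and is no test.

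The DR beta chain gene SLA-DRB1, which is no member, was high on the same array. The signal of its brightest probe set with a single symbol was 513, 618, 608 and 2722 in Korean native pigs 1 to 4 and 373, 789, 799 and 1069 in Yorkshire pigs 1 to 4. The highest array, Korean native pig 4, was 2.55 times the next array. The log2 difference was 0.26 (limma adjusted p = 0.999), or -0.28 without Korean native pig 4, and it was 0.03 in the bright and 0.49 in the dim arrays. Both other SLA-DRB1 probe sets with a single symbol were too dim to be tested.

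SLA-DMA and SLA-DMB encode the chains of DM, the molecule that loads peptides onto class II. The SLA-DMB signal was 312, 232, 289 and 800 in Korean native pigs 1 to 4 and 161, 302, 372 and 281 in Yorkshire pigs 1 to 4. The highest, Korean native pig 4, was 2.15 times the next array, and the other 3 Korean native pigs lay inside the Yorkshire range. The log2 difference was 0.39 (SE 0.36, 95% interval -0.40 to 1.19, limma adjusted p = 0.999), or 0.04 with Korean native pig 4 left out. In the bright arrays it was 0.25 and in the dim ones 0.54.

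The 2 probe sets of SLA-DMA disagreed on Korean native pig 4. The brighter probe set, probe set 1 in the plots, had a signal of 699.9, 653, 590.2 and 791 in Korean native pigs 1 to 4 and 556, 645, 622 and 882 in Yorkshire pigs 1 to 4. Here Yorkshire 4 was highest, and all 8 arrays lay within 1.59 times of each other. The dimmer probe set had a signal of 203, 179.7, 153 and 627 in Korean native pigs 1 to 4 and 207, 123, 182 and 242 in Yorkshire pigs 1 to 4. On this one Korean native pig 4 was 2.59 times the next array, like most other class II probe sets. The log2 difference was 0.03 (SE 0.21) for the brighter and 0.37 (SE 0.39) for the dimmer probe set, each with limma adjusted p = 0.999, and -0.04 and -0.05 without Korean native pig 4. For the brighter probe set it was also below 0 without Yorkshire 1 (-0.06) and without Yorkshire 3 (-0.0045). Within the bright and the dim arrays it was 0.12 and -0.07 for the brighter and -0.12 and 0.86 for the dimmer probe set. Between both probe sets Pearson's r over the 8 arrays was 0.57 (exact permutation test, two-sided p = 0.146) and Spearman's rho 0.50 (p = 0.216 by the same exact test), and without Korean native pig 4 r was 0.49.

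CD74, the invariant chain, had a signal of 637, 860.4, 521 and 3141 in Korean native pigs 1 to 4 and 689.7, 824, 635 and 1641 in Yorkshire pigs 1 to 4. Again Korean native pig 4 was highest, at 1.91 times the next array, and Yorkshire 4 stood above the 6 remaining arrays. The log2 difference was 0.15 (SE 0.49, 95% interval -0.91 to 1.21, limma adjusted p = 0.999). Without Korean native pig 4 it was -0.40 (95% interval -1.13 to 0.33), the lowest of all members, with -0.19 within the bright and 0.49 within the dim arrays.

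**Figure D2:**
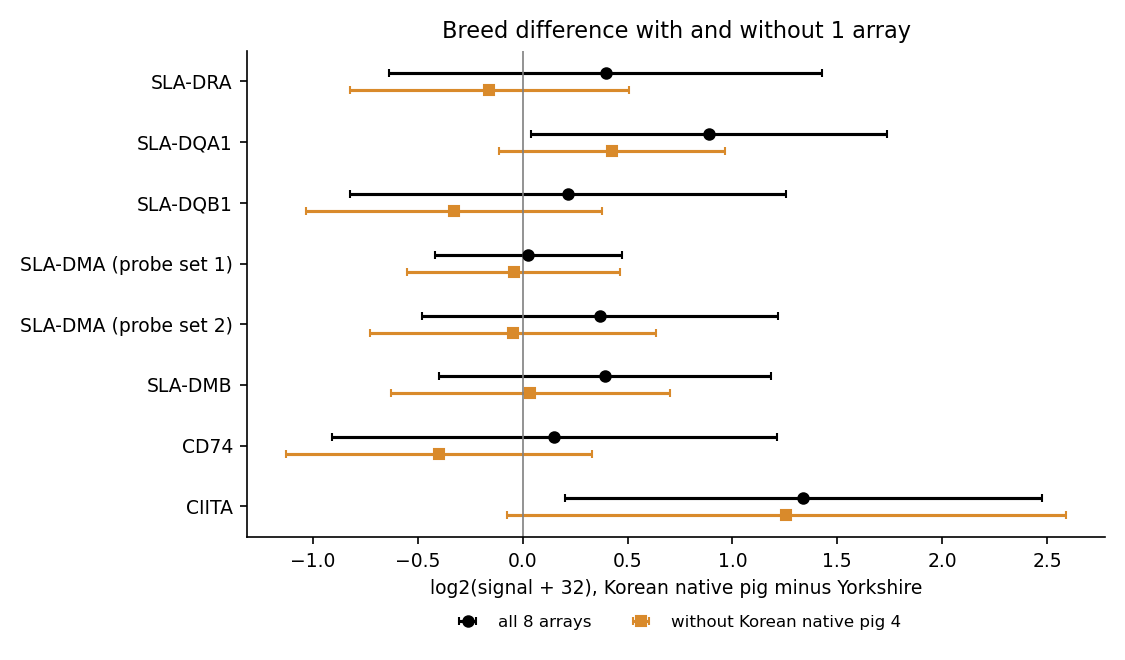
Difference in log2(signal + 32), Korean native pig minus Yorkshire, of the 8 member probe sets, with all 8 arrays (circles) and without Korean native pig 4 (squares). Bars are 95% confidence intervals of the limma fit, and those without Korean native pig 4 are descriptive, since that array was left out for its values. Each difference is lower without that array, and SLA-DRA, SLA-DQB1, CD74 and both SLA-DMA probe sets go from above to below 0.

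CIITA, the activator, had an order of the arrays that the class II genes did not share. Its signal was 168, 109, 256 and 220.4 in Korean native pigs 1 to 4 and 226, 33.7, 35.9 and 11.5 in Yorkshire pigs 1 to 4. Yorkshire pigs 2, 3 and 4 lay below the negative control level of 91.5 and all Korean native pigs above it, while Yorkshire 1 was second highest of all. Thus the breeds overlapped through 1 array, and no member probe set separated them without overlap, against 2.56% of all probe sets.

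The log2 difference of CIITA was 1.34 (SE 0.52, 95% interval 0.20 to 2.47, limma adjusted p = 0.999). Leaving out its highest array, Korean native pig 3, gave 1.19, leaving out Korean native pig 4 gave 1.26 and leaving out Yorkshire 1 gave 1.88. Within the bright arrays the difference was 0.86 and within the dim ones 1.82. With signals below the negative control level raised to it the difference was 0.52, an alternative chosen after these values were seen, so its size rests on signals that cannot be told from background. The probe set also lay close to the limit on dim probe sets: 193 of the 14399 tested had a lower mean. It passed that limit through the arrays on which it was high, so its interval and p describe these arrays and are no test.

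Over the 7 genes, 1 probe set each, the median difference was 0.39, against -0.0027 over all 5331 genes tested. Without Korean native pig 4 it was -0.04, with 3 of 7 genes above 0, against -0.0057 over all genes. Within the bright arrays it was 0.13 and within the dim ones 0.67. All 7 genes had a difference above 0 with all arrays, as had 49.6% of all genes. These genes were chosen with results of the series known, and their signals rise together on 1 array, so the count of 7 of 7 above 0 is a description of these arrays.

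No covariation of the class II genes with CIITA was found over the arrays. For each of the 6 class II genes Pearson's r with CIITA was computed over the 8 arrays, with exact two-sided permutation over the 40320 pairings and adjustment over the 6 pairs. The r was 0.04 for SLA-DRA, 0.28 for SLA-DQA1, 0.0016 for SLA-DQB1, -0.42 for SLA-DMA, 0.06 for SLA-DMB and -0.10 for CD74, each with an adjusted p = 0.997 in that exact permutation test. Spearman's rho ran from -0.55 to 0.05, with adjusted p from 0.584 to 0.935 by exact permutation.

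These values rested on Korean native pig 4, which had the third highest CIITA signal. Without it r was negative for all 6 genes, at -0.61 for SLA-DRA, -0.10 for SLA-DQA1, -0.57 for SLA-DQB1, -0.67 for SLA-DMA, -0.48 for SLA-DMB and -0.72 for CD74 (7 arrays, exact permutation adjusted p from 0.211 to 0.821). Spearman's rank correlation was then -0.86 to -0.04 (adjusted p from 0.143 to 0.963 by exact permutation). Leaving out Yorkshire 4 and Yorkshire 2, which were farthest from the CIITA median, gave r of -0.19 to 0.22. With breed means removed r was -0.63 to -0.12, and within a breed 4 arrays are too few for a correlation. The low end of each CIITA relation is made of signals below the negative control level.

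**Figure D3:**
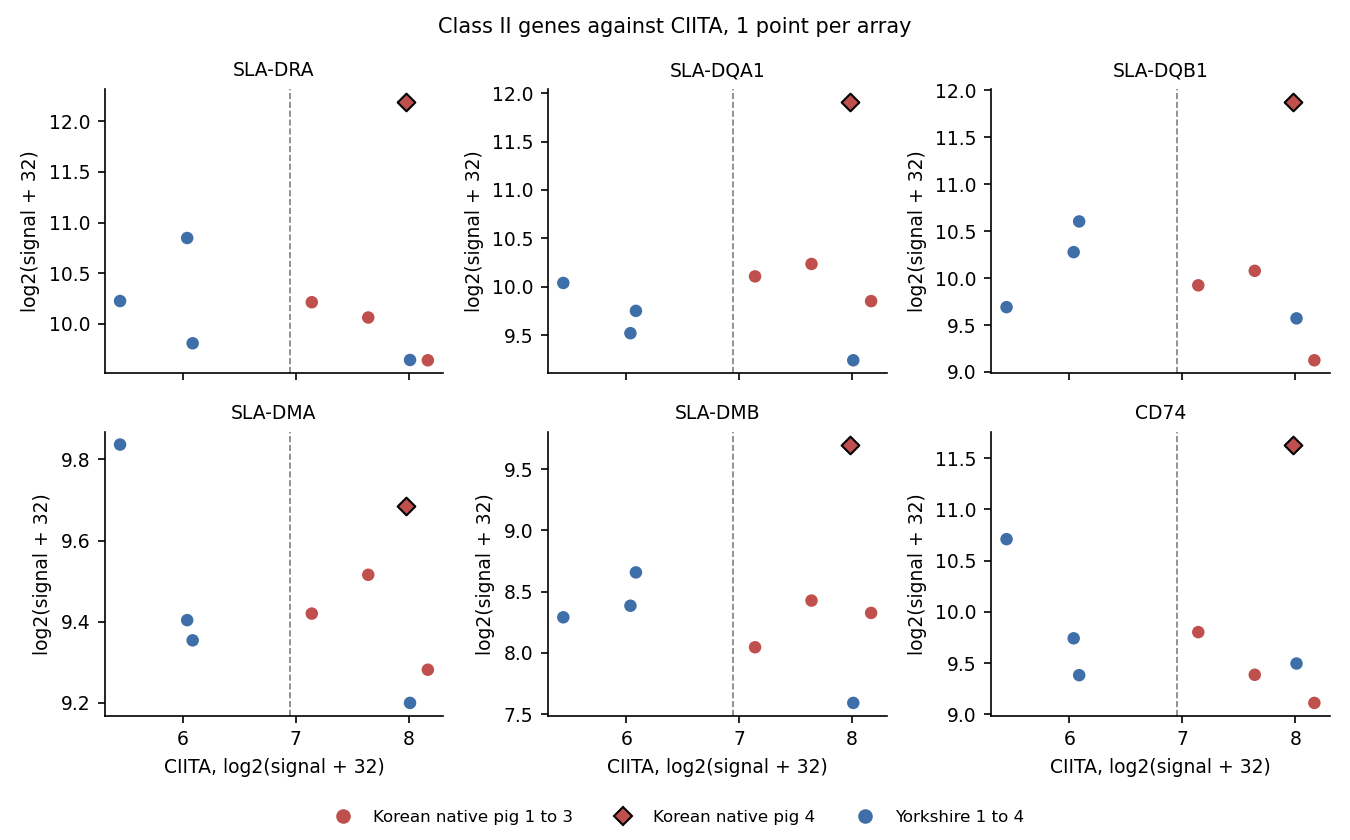
The log2(signal + 32) of 6 class II genes (vertical axes, each with its own range) against that of CIITA (horizontal axis), with 1 point per array. The dashed line is the negative control level, left of which 3 Yorkshire arrays lie. Korean native pig 4 (diamond) has the highest value of 5 class II genes but the third highest of CIITA.

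No pair of class II genes had a correlation that passed the test, and most r were lower without Korean native pig 4. In the 15 pairs of 6 genes r was 0.41 to 0.88 with a median of 0.78, and 0 pairs had an adjusted p under 0.05 after adjustment over the 15 (exact permutation adjusted p from 0.0751 to 0.319). Spearman's rank correlation had a median of 0.45, from 0.00 for SLA-DMB with CD74 to 0.86 for SLA-DRA with CD74 (exact permutation adjusted p from 0.138 to 1). Without Korean native pig 4 the median r was 0.33, from -0.07 for SLA-DMB with CD74 to 0.84 for SLA-DMA with CD74, and the lowest exact permutation adjusted p was 0.619. For SLA-DMA with CD74 r was 0.78 with all arrays, and for SLA-DQA1 with SLA-DMA it was 0.61 with and without that array. Without the 2 arrays farthest from the median of the first gene of each pair r was -0.46 to 0.82, with 10 of 15 above 0.

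Other genes of the class II route moved on Korean native pig 4 to different extents. Of 18 listed genes for processing and peptide loading, 11 had a probe set and 10 were tested, with 5 above and 5 below 0 and a median difference of 0.06 (-0.13 without Korean native pig 4). Of the 10 tested, 6 had their highest signal on Korean native pig 4, against 11% of all genes tested. None passed, and 0 had an unadjusted limma p under 0.05, as had 3.43% of all genes tested. The named members were CTSS, cathepsin S, which trims the invariant chain, at 0.38 (-0.13 without Korean native pig 4), and CTSH, a lysosomal aminopeptidase, at -0.54 (-0.92). The CTSS signal was 1319, 791, 823 and 4026 in Korean native pigs 1 to 4 and 880, 1091, 1636 and 746 in Yorkshire pigs 1 to 4, with Korean native pig 4 at 2.46 times the next array. Its other probe sets, at 0.11 and 0.28, were also highest there. CTSH was highest on that array too, with a signal of 485 against 456 on Yorkshire 2.

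Of 25 promoter factors and CIITA inducers, 15 had a probe set and 12 were tested, with 8 above and 4 below 0, a median of 0.11 (0.04 without Korean native pig 4), and 0 at an unadjusted limma p under 0.05. Of the 12 tested, 4 had their highest signal on Korean native pig 4, against 11% of all genes tested. IRF8, an interferon regulatory factor of myeloid and B cells, was at 1.06 (SE 0.63, 0.47 without Korean native pig 4). Its signal was 138, 135, 174 and 896 in Korean native pigs 1 to 4 and 11.3, 104, 159 and 225 in Yorkshire pigs 1 to 4. The highest, Korean native pig 4, was 3.99 times the next array. IRF2, which acts at a CIITA promoter, was at 0.44 (0.38), with dim other probe sets at -0.08 and -0.26. IFNG, interferon gamma itself, was too dim to be tested, with signals of 7.51 to 152.

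Genes of class I presentation and of the interferon gamma response were also high on Korean native pig 4. Of 13 class I genes tested of 19 listed, 10 had their highest signal there, against 11% of all genes tested, while 5 were above and 8 below 0 between the breeds (median -0.10, or -0.39 without that array). The named members were 2 class I genes: SLA-6 at 0.51 (0.22 without that array), with a dim second probe set at 0.28, and SLA-8 at -0.53 (-0.83), with a second probe set at -0.52. All 6 tested interferon gamma response genes of 14 listed were highest there, with 3 above 0 and a median of 0.08, or -0.35 without that array. ICAM1, an adhesion molecule, was at 0.42 (0.32) and WARS, a tRNA synthetase induced by interferon, at 0.22 (0.11), with other WARS probe sets at 0.35 and -0.29. Both lists had 0 genes passing and 0 at an unadjusted limma p under 0.05.

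All tested macrophage markers and most tested pan-leukocyte, T and NK cell markers were highest on the array that was high for the class II genes. So was the 1 B cell marker tested, while of 5 tested dendritic cell markers 2 were. In bulk muscle, fewer cells of a type and less RNA per cell cannot be told apart. All 8 tested macrophage markers had their highest signal on Korean native pig 4, against 11% of all genes tested. Genes were kept for testing by their mean over all 8 arrays, so a dim gene could enter through that array. This limit holds for the tested genes of every list here, and the counts are descriptions. The 13 macrophage markers with a probe set, of 18, had a summed signal of 2955, 1499, 2327 and 9914 in Korean native pigs 1 to 4 and 1846, 2662, 4176 and 3293 in Yorkshire pigs 1 to 4. SIGLEC1 was below the negative control level on all arrays. The named members were LAPTM5, a lysosomal membrane protein of blood cells, at 0.93 (0.24 without that array) and AIF1, an actin-binding protein of macrophages, at 0.71 (0.18), and a dim second LAPTM5 probe set was at -0.21. The list had 6 of 8 genes above 0 and a median of 0.05, or -0.36 without that array.

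The pan-leukocyte list gave a like picture. Its 7 genes with a probe set, of 9, summed to 1053 to 1498 in Korean native pigs 1 to 3, 3616 in Korean native pig 4 and 900.5 to 1427 in Yorkshire pigs. On Korean native pig 4, 4 of the 6 tested were highest, against 11% of all genes tested. The median difference was 0.27 with 5 of 6 above 0, or 0.11 without it. LCP1, a leukocyte actin-bundling protein, was at 0.92 (0.51 without that array) and the small GTPase RAC2 at 0.65 (0.20). A second tested LCP1 probe set was at 0.09 and dim ones at -0.41, 0.48 and 0.23, and a dim one of RAC2 was at 0.14.

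Lymphocyte markers were mostly too dim to be tested. Of 18 T and NK cell markers, 12 had a probe set and 5 were tested, 3 of them highest on Korean native pig 4, against 11% of all genes tested. The summed signal was 3255 there against 815 to 1315 in the other Korean native pigs and 973 to 1610 in Yorkshire pigs. Their median was 0.11 (4 of 5 above 0), or -0.37 without that array. GNLY, a cytotoxic granule protein, was at 0.33 (0.28) and highest on Korean native pig 3. CD8B was at -0.18 (-0.04) and lowest on Korean native pig 4, with a signal of 83.3. Of 11 B cell markers, 4 had a probe set, 1 was tested and CD79B, part of the B cell receptor, was below the negative control level on all arrays. The tested one, JCHAIN, which joins secreted immunoglobulins, had a signal of 1809 on Korean native pig 4 and 154 to 339 on the others, with a difference of 0.39 (-0.33 without that array). Of 12 dendritic cell markers, 7 had a probe set and 5 were tested, 2 of them highest on that array, against 11% of all genes tested. The summed signal was 2260 there against 1083 to 1672 on the other arrays. The median was -0.04 with 2 of 5 above 0, or -0.31 without that array. CD83 was at -0.49 (-0.73) and CD80 at -0.35 (-0.31), with second probe sets at -0.998 and -0.40. Both are marks of activated antigen-presenting cells and were highest on Yorkshire 4. The CD80 signal was 122 on Korean native pig 4.

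Endothelial and muscle markers did not follow. Of the 9 endothelial genes tested, of 10 listed, 1 was highest on Korean native pig 4, against 11% of all genes tested. The endothelial sum there, 4717, lay inside the range of 4685 to 6554 of the other arrays. They had 6 above 0 and a median of 0.02 (-0.01 without that array), with EGFL7 at -0.62 (-0.54), the only gene of these lists with an unadjusted limma p under 0.05, and ENG at -0.64 (-0.43). The muscle fibre sum on Korean native pig 4, 387232, was the lowest of the 8 arrays, and 0 of the 8 genes were highest there. They had 1 of 8 above 0 and a median of -0.32 (-0.19), with TNNC2, the fast troponin C, at -0.42 (-0.30) and MYL1, a myosin light chain, at -0.33 (-0.19). None of the genes of these 11 lists passed the limma adjusted threshold. Of the genes named from them, 6 differed in sign between the bright and the dim arrays: CTSH (-1.19 and 0.11), CTSS (-0.20 and 0.97), WARS (-0.01 and 0.45), CD80 (0.54 and -1.24), JCHAIN (-0.55 and 1.34) and RAC2 (-0.24 and 1.55). The part of leukocyte RNA in the class II signal of Korean native pig 4 was not tested. The hybridisation controls of that array were in the dim class, its 3' to 5' ratio of housekeeping transcripts lay inside the 0.87 to 3.33 log2 units of the other arrays, and its median signal of 161.1 lay inside the range of the other arrays.

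**Figure D4:**
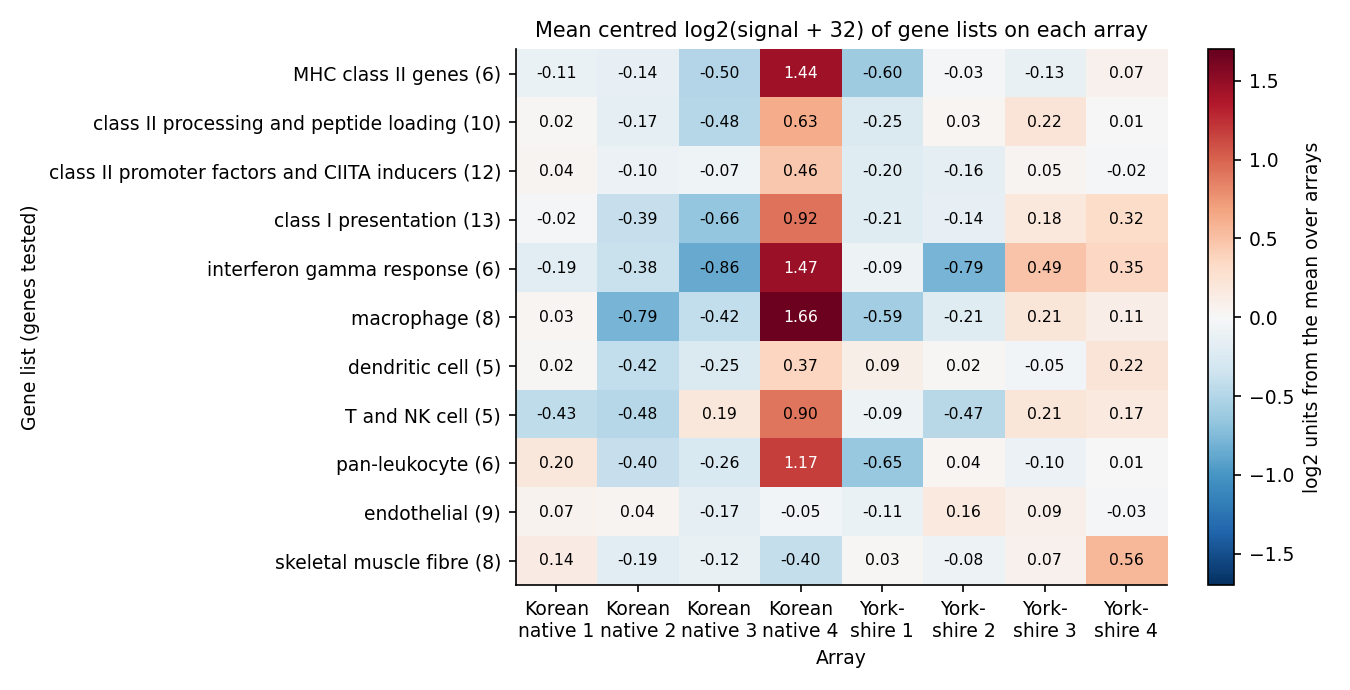
Mean over the tested genes of a list of log2(signal + 32), each gene centred on its mean over the 8 arrays, for the 6 class II genes and the 10 lists with at least 5 tested genes (rows) on each array (columns). The class II genes are at 1.44 on Korean native pig 4 and at -0.60 to 0.07 on the other arrays. The macrophage and interferon gamma lists are at 1.66 and 1.47 on that array, and the endothelial and muscle fibre lists at -0.05 and -0.40.

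The genes whose pattern over the 8 arrays was most like the class II mean, among 5324 genes outside the members, were SLA-DRB1 (r = 0.945), ARPC5, a subunit of the actin-nucleating Arp2/3 complex (0.941), PLAC8 (0.931), C4H1orf54 (0.922) and LOC106504372 (0.920). All 5 were highest on Korean native pig 4. Without that array their r was 0.785, 0.583, 0.837, 0.433 and 0.738. LOC106504372 shares several probe sets with SLA-DRB1 in the annotation. Most like CIITA were PLAGL1, a zinc finger factor (0.961), ACTL6A, an actin-related subunit of chromatin remodelling complexes (0.960), RPP30, a subunit of ribonuclease P (0.948), AGTRAP, a protein that binds the angiotensin receptor (0.938), and GPN3 (0.928). Their r with CIITA was 0.939 to 0.959 without Korean native pig 4. ACTL6A had a signal of 534, 530.1, 589 and 575 in Korean native pigs 1 to 4 and 546, 378, 421 and 302 in Yorkshire pigs 1 to 4, so its low arrays were the 3 on which CIITA was below the negative control level. Neither set of genes is a test, since the best of many correlations over 8 arrays is high by selection.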

How the data were processed

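One-colour Affymetrix porcine arrays of 8 muscle RNA samples were used, 4 per breed. The deposited values are linear signal intensity values, 1 per probe set and array, made with GCOS 1.3 per the submitters' processing notes. How probe sets were summarised, and on which genome build, is not stated in these sources. The trimmed mean signal was 499.8 on every array, so levels are relative to the rest of each array.

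Signals were taken as log2(signal + 32), which understates changes of dim probe sets. Affymetrix controls (124) and the dimmest 40% of the rest (mean signal below about 98.6) were left out, leaving 14399 probe sets, which were fitted with limma 3.58.1 in R 4.3.3 (intensity trend, no covariates, Benjamini-Hochberg over all tested, threshold 0.05). The fit was tested on simulated data. A gene was represented by its brightest probe set. Correlations used exact permutation over pairings. For arrays their number limits the precision. Of each list the 2 genes of smallest p were named, since none passed, and the 5 genes most like the class II mean and CIITA. Other genes were named after their values were seen. The members and lists were chosen with earlier results of these data known. IRF1 is in 2 lists.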

Additional observations from a re-analysis of the deposited data

Results flagged for a closer look

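3 genes stood far from the other Korean native pig arrays on Korean native pig 4, by a gap to the next array, as a share of that breed's whole range, above Dixon's 95% critical value for 4 samples. For IRF8 log2(signal + 32) was 9.86 there and 7.38 to 7.69 on the other 3, a gap of 0.877 of the range. For the class II gene SLA-DRB1, no member, it was 11.43 there and 9.09 to 9.35 on the other 3, a gap of 0.891. For LOC106504372, which shares probe sets with SLA-DRB1 in the annotation, it was 11.64 and 9.71 to 9.95, a gap of 0.877. They came from 90 groups of 4 arrays examined. Chance gives about 1 in 20 for independent groups that were not picked. The groups here share the same 8 arrays and hold picked genes, so the count of 3 cannot be judged by that rate. It is a description and no test. LOC106504372 and SLA-DRB1 had been picked for a pattern like the class II mean, and IRF8 for its small p among the listed promoter factors and inducers. None of the 8 member probe sets passed this limit.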

How the results depend on the processing

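Of 298 alternative values of the breed differences, correlations, median and count of calls, 263 kept their direction and their side of the threshold, 33 single-gene differences and correlations changed sign, and 1 count moved. The median over the member genes also changed sign, from 0.39 to -0.04, without Korean native pig 4. No member passed in any setting of the fit (limma adjusted p from 0.964 to 1), and SLA-DQA1, SLA-DMB and CIITA kept a difference above 0 in all 20 settings each, CIITA from 0.52 to 1.88. Leaving out each array in turn gave -0.16 to 0.69 for SLA-DRA, -0.33 to 0.59 for SLA-DQB1, -0.0560 to 0.16 and -0.0454 to 0.57 for the brighter and dimmer SLA-DMA probe sets, -0.40 to 0.44 for CD74, and -0.04 to 0.59 for the median. Among the arrays of bright hybridisation controls the difference was -0.49 for SLA-DQB1, -0.12 for the dimmer SLA-DMA probe set and -0.19 for CD74. The brighter SLA-DMA probe set was at -0.0677 among the dim arrays and -0.0179 when the arrays with a high ratio of 3' to 5' signal were left out. These 3 selections, and the raising of low signals to the negative control level, were chosen after seeing the data.

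Correlations with CIITA over the leave-one-out settings were -0.61 to 0.21 for SLA-DRA, -0.10 to 0.51 for SLA-DQA1, -0.57 to 0.26 for SLA-DQB1, -0.67 to 0.0415 for SLA-DMA, -0.48 to 0.34 for SLA-DMB and -0.72 to 0.19 for CD74. With breed means removed they were -0.17, -0.19, -0.12 and -0.25 for SLA-DRA, SLA-DQA1, SLA-DQB1 and SLA-DMB. Without the 2 arrays farthest from the CIITA median they were -0.19 for SLA-DQB1, 0.0423 for SLA-DMA, -0.0265 for SLA-DMB and 0.22 for CD74. SLA-DQB1 was at -0.0050 with a pseudocount of 64, -0.0378 with quantile normalisation and -0.0489 with low signals raised, and SLA-DMA at 0.13 with the mean of its probe sets. The cause of these changes was not tested.

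By limma 0 probe sets passed and 570 had an unadjusted p under 0.05, 289 higher and 281 lower, or 472 and 167 with arrays centred on their median. With the replicate number as a block 1 probe set passed, which is no member. In that fit the SLA-DQA1 difference of 0.89 had SE 0.28 (limma adjusted p = 0.974). The CD74 difference of 0.15 had SE 0.24 (limma adjusted p = 0.992), while the SE of the brighter SLA-DMA probe set stayed at 0.21. The numbers are not shown to pair arrays: same-numbered arrays correlated at -0.04, 0.31, 0.10 and 0.05 in their deviations from the breed means, and only 2 of these exceed 0.1. With 4 arrays per breed the median within-breed SD of the member genes was 0.85 log2 units, and CIITA signals in 3 Yorkshire arrays were at background.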

Other observations

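SLA-DOA, a chain of the DO molecule that restrains DM, was too dim on average to be tested. Its signal was 274 in Korean native pig 4 and 156 in Korean native pig 2, and 14.5 to 49.5 on the other 6 arrays, below the negative control level of 91.5. These values were looked at after the class II pattern was seen.

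The interferon-induced gene GBP1 had a signal of 701, 526, 148 and 5503 in Korean native pigs 1 to 4 and 928, 305, 2448 and 1715 in Yorkshire pigs 1 to 4. The chemokine gene CXCL9, which interferon gamma induces, had a signal of 306, 205, 121 and 2257 in Korean native pigs 1 to 4 and 319.9, 413, 692 and 583 in Yorkshire pigs 1 to 4. Both were lowest in Korean native pig 3 among the Korean native pigs, the array on which CIITA was highest. For the class I gene SLA-2 the signal was 23500 in Korean native pig 4 and 16204 in Yorkshire 4, and 4364 to 8131 on the other 6 arrays. These genes were chosen after their values were seen.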
